A study of Mus musculus with 24 samples.

Results

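Cytosolic ribosomal proteins are the proteins that join with ribosomal RNA to build the ribosomes of the cytoplasm. Their genes were taken by symbol: every gene of the deposited table named Rpl or Rps followed by a number, by a, or by a stalk name from p0 to p2, with an optional closing a, x or l. This gave 82 of 22009 named genes, of which 50 belonged to the large subunit and 32 to the small subunit. Kinases that phosphorylate Rps6 have other names and were not taken. All 82 genes were found in the GENCODE annotation of the mouse genome build GRCm38, on 19 chromosomes, with 4 genes on the X chromosome.

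The study followed messenger RNA during the first day of CD4+ T cell activation. CD4+ T cells came from spleens of adult WT C57BL/6 mice, were pooled and were purified by negative selection on magnetic beads. Resting cells gave 2 libraries, and cultures gave 1 library for each of 3 conditions at 4, 8, 12, 16, 20 and 24 h. A separate set of 4 libraries came from cells stimulated for 16 h, after which the transcription inhibitor actinomycin was added for 0, 1, 2 or 4 h. Th0 cultures received plate-bound anti-CD3 and soluble anti-CD28. Th1 cultures received these with anti-IL-4 and IL-12, and Th2 cultures received them with anti-IL-12, anti-IFN-gamma and IL-4. The labels did not give the skewing of the actinomycin set. No culture was repeated, so the 3 cultures at a time point stood in for replicates, and the tests measured the spread between those libraries and not between mice. Cells of a condition were taken at successive times, so its 6 libraries are serial samples and not independent cultures, and the tests between conditions used them as replicates. The titles of the resting libraries carried another tag than those of the cultures, whose meaning was not given, so that a difference in handling and activation cannot be told apart.

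Resting T cells are small and make little protein. On activation they enlarge before they divide, and this growth needs new ribosomes. Most ribosomal protein mRNAs begin with a C followed by a run of pyrimidines, the 5′ terminal oligopyrimidine (TOP) motif, through which mTOR signalling and the RNA-binding protein Larp1 set their translation. Their output is therefore known to be controlled to a large part at translation, which RNA sequencing does not measure.

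Values were RPKM, reads scaled to transcript length and library depth, so levels can be compared between genes. The depth was read back from the values: 60.4% of the single-transcript genes of resting library 1 gave whole read numbers, within 0.01 of a read, at a single library total. The totals found in this way ran from 17512385 to 33017133 mapped reads over the 20 time-course libraries. For the 22 members whose values were whole reads of a single length, the lowest value of a highly expressed gene rested on 2233 reads. Rps4l, a low member, had 38 and 66 reads at rest and 34, 18 and 30 at 4 h, so counting error is large in its changes. Sequence sharing was a larger limit. A median of 20.4% of the 50-base windows of a member were also found in another annotated gene, and for 6 members this passed 50%. Rpl36 (81.1%), Rpl6l (76.4%), Rplp1 (60%), Rpl19 (57.4%), Rpl24 (51.8%) and Rpl23a (50.1%) were these 6, and their values can hold reads of copies.

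The start regions of the members on which the results turn are shown because the TOP motif lies there. Promoter sequences were taken from RefSeq (build GRCm38.p6), which held 72 promoters of 60 members; 22 members had no entry. Each line gives 30 bases around an annotated start on the transcribed strand, with 15 bases before it. Capitals mark the longest stretch in which a C is followed by at least 5 pyrimidines.
Rps27l: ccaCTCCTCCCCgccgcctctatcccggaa
Rps27: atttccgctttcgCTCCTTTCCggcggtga
Rps2: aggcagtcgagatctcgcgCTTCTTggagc
Rps12: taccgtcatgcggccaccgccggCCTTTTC
Rpl15: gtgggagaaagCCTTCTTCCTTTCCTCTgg
Rps24: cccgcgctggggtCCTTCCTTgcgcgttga
Rps6: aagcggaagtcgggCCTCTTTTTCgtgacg
Rplp2: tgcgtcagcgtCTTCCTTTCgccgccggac
Rps16: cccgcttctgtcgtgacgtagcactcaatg
Rpl24: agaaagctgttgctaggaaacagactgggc
The windows lie at chr9:66946071-66946100 on the + strand (Rps27l), chr3:90213634-90213663 on the - strand (Rps27), chr17:24720048-24720077 on the + strand (Rps2), chr10:23787195-23787224 on the - strand (Rps12) and chr14:18270972-18271001 on the - strand (Rpl15). Those of Rps24 (chr14:24490663-24490692, + strand), Rps6 (chr4:86857353-86857382, - strand), Rplp2 (chr7:141447636-141447665, + strand), Rps16 (chr7:28350674-28350703, + strand) and Rpl24 (chr16:55966260-55966289, + strand) complete the set. Rps27l and Rps24 have a further annotated start whose window holds no such run. The windows of Rps16 and Rpl24 hold none either, which says only that these letters are absent from these bases.

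A pyrimidine run of this kind was present in 36 of the 72 member promoters (50%), from 35 genes. It was found in 22.5% of all 32851 promoters and in 23.3% of the 10564 promoters of genes whose mean reached 1 RPKM. A C at the annotated start itself, followed by 4 pyrimidines, was present in 13 member promoters (18.1%), against 2.51% of all promoters and 2.30% of those of expressed genes. Other motifs were searched on both strands of the full 300 bases, from 250 before to 50 after the start. CCGGAAG, a core bound by ETS factors, was in 26 member promoters (36.1%), from 25 genes. It was in 8.86% of all promoters and in 19.0% of those of expressed genes. AAGATGG, a core of YY1 sites, was in 11 (15.3%), from 9 genes, against 6.34%, with 7.35% for expressed genes. The E-box CACGTG, which Myc can bind, was in 8 (11.1%), from 6 genes, against 7.15% of all and 10.2% of expressed promoters. The TATA box TATAAA was in 6 (8.33%), a share below that of all promoters (13.6%) and above that of expressed genes (6.80%). Promoters of nearby starts of a gene overlap, so a single site can be counted more than once. A match is a description of the sequence and not a bound site.

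Ribosomal protein mRNAs were among the most abundant of these cells. The median member had a mean of 1191 RPKM over the time course, while the median over all genes was 0.922 RPKM. Of the 82 members, 79 reached a mean of 1 RPKM and entered the tests, and 78 were above 100 RPKM. The highest means belonged to Rps24 (2912 RPKM), Rplp1 (2717 RPKM), Rps4x (2693 RPKM), Rpl13a (2679 RPKM) and Rplp0 (2573 RPKM). The lowest were those of Rpl10l, which was listed at 0 in every library, Rpl3l (0.0166 RPKM) and Rpl39l (0.924 RPKM). In resting library 1, 57 of the 100 most abundant genes were members. The members differed in level, with a coefficient of variation of 49.0% among those above 100 RPKM in that library.

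As a group the members took between 16.0% and 19.6% of the message in the time-course libraries. In the resting libraries 16.7% and 16.1% of the summed RPKM belonged to them, a mean of 16.4% ± 0.399 (SD, n = 2). Th0, Th1 and Th2 cultures of 4 h had 16.0%, 16.0% and 18.2%, and those of 24 h had 18.3%, 17.3% and 19.6%, a mean of 18.4% ± 1.17 (SD, n = 3). The 3 libraries of 24 h were thus above both resting libraries, and at 4 h only the Th2 library was. Haemoglobin mRNA made up 6.55% ± 0.432 (SD, n = 2) of it at rest, 6.06% at 4 h and 0.0298% at 24 h. With haemoglobin genes left out, the share of the members was 17.5% at rest, 17.8% at 4 h and 18.4% at 24 h, and the Th1 library of 24 h (17.26%) was then below both resting libraries (17.8% and 17.3%). The Th2 libraries of 4 h and 24 h also had the largest sums of RPKM among the time-course libraries, 633057 and 641524, against 580573 to 611342 for the others.

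**Figure D1:**
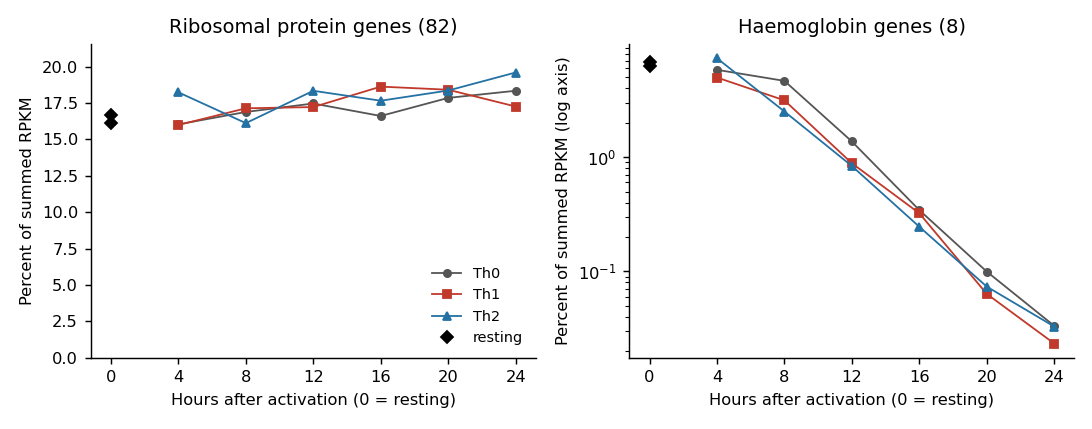
Share of the summed RPKM taken by the 82 ribosomal protein genes (left, percent) and by 8 haemoglobin genes (right, percent, log axis) in each resting library and each culture by hours after activation. The share of the ribosomal protein genes lay between 16.0% and 19.6%, while that of haemoglobin fell from 6.55% at rest to 0.0298% at 24 h.

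The balance between the subunits shifted slightly in time. The summed RPKM of the large subunit genes was 1.27 and 1.28 times that of the small subunit genes in the resting libraries. The ratio averaged 1.28 ± 0.0122 at 4 h, 1.34 ± 0.0177 at 12 h, 1.39 ± 0.0121 at 20 h and 1.38 ± 0.0181 at 24 h (SD, n = 3 each). Every culture from 8 h on was above both resting libraries in this ratio. In bulk samples, fewer cells of a type and less RNA per cell cannot be told apart.

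Markers of other cells moved with time and are given beside these results; their part in them was not tested. Of 8 red cell genes tested, all 8 fell at least 2-fold by 24 h, and their summed level went from 40674 RPKM at rest to 36940.1 at 4 h and 186 at 24 h; Hbb-bs was the most abundant, at 14504 RPKM at rest. Of 8 macrophage genes tested, 8 fell, and all 10 in the list summed to 582 RPKM at rest, 61.9 at 4 h and 10.9 at 24 h, and C1qa (108 RPKM at rest) was the most abundant. All 7 B cell genes fell, from a sum of 76.4 RPKM to 14.5 (Cd79b, 22.2 RPKM at rest), and 2 of 4 genes of CD8 and NK cells fell at least 2-fold, from 40.5 to 13.6 RPKM (Klrb1c, 19.4 RPKM at rest). Markers of the labelled cells were present throughout: Cd3g stood at 464 RPKM at rest, and 9 T cell genes summed to 2361 RPKM at rest, 1547 at 4 h and 1694 at 24 h, with 2 higher and 6 lower at 24 h at any fold. None of the markers in these lists was at 0 in every library. Cd8a had 2.02 and 1.61 RPKM and Cd8b1 10.39 and 11.08 RPKM in the resting libraries, beside 328 and 326 RPKM for Cd4.

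Early activation left most members near their resting level. At 4 h, 0 of the 79 members tested passed the limma test at an adjusted p under 0.05 with at least a 2-fold change. Of the 10897 genes tested, 10.6% did. At any fold 0 members were higher (11.5% of all genes) and 2 were lower (20.2% of all genes), among them Rpl3. The median log2 change of the members was 0.02, with 45 of 79 above 0, and that of all genes was -0.04. This median rested on the Th2 culture: relative to the resting mean, 71 of 79 members were higher in the Th2 library, with a median of 0.24, but 18 were in Th0 (median -0.10) and 15 in Th1 (median -0.08). Without the Th2 culture the median was -0.07, and 4 members passed at any fold, all lower. The count was 1 without either resting library or without Th0, and 0 without Th1. Rps27 (0.33), Rps27l (0.33) and Rps20 (0.30) had the highest changes and Rps4l (-0.73) and Rpl3 (-0.52) were the lowest. Libraries scaled to an equal sum, scaled in this way without haemoglobin, or quantile-normalized each gave 1 higher and 1 lower member.

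By 12 h members that passed were mostly higher. Rps27l was the single member past 2-fold at 8 h (18.9% of all genes passed), at 12 h (27.1%) and at 16 h (25.7%), and Rps2 joined it at 20 h (29.0%). Without resting library 2 the count at 16 h was 2, and without resting library 1 the count at 20 h was 1. At any fold, 20 members rose at 12 h (28.9% of all genes) and 4 fell (32.5%). The upward share was thus close to that of all genes, and the downward share was below it. These counts depended on single libraries: 13 rose and 0 fell without resting library 1, 10 and 2 without resting library 2, 13 and 0 without the Th1 culture, and 19 and 2 without the Th0 culture. The split was 29 to 1 with median-of-ratios scaling and 21 to 8 with quantile normalization. In all, 9 of the 24 members passed whichever resting library or culture was left out, and all 9 of these rose. Rpl6 and Rpl6l were both among the 9. The level of Rpl6l was between 13.7% and 14.9% of that of Rpl6 in every library, so they may not be separate calls.

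At 24 h the changes that passed were mostly upward and below 2-fold. Rps27l alone passed with at least a 2-fold change, against 30.1% of all genes, and without the Th1 culture a second member passed. At any fold 29 members rose (31.6% of all genes) and 4 fell (33.6%), the latter 1 without resting library 1 or without the Th1 culture. With quantile normalization the split was 23 to 13. The median log2 change of the members was 0.19, with quartiles of -0.07 and 0.50 and 54 of 79 above 0, while that of all genes was -0.04. Scaling moved both: with median-of-ratios factors the medians were 0.34 for members and 0.10 for all genes, with haemoglobin left out 0.08 and -0.15, and with quantile normalization 0.06 and 0.13, so that the members were then below the median gene. Large subunit genes had a median of 0.23, with 19 of 47 higher and 1 lower, and small subunit genes a median of 0.01, with 10 of 32 higher and 3 lower. When each resting library or culture was left out in turn, 20 of the 33 members passed every time, 19 of them upward and 1, Rps16, downward. Rpl6 and Rpl6l were again both among those that rose. Without regard to the test, the 3 libraries of 24 h were above both resting libraries for 39 of 79 members (38.7% of all genes) and below both for 5 (41.9%).

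**Figure D2:**
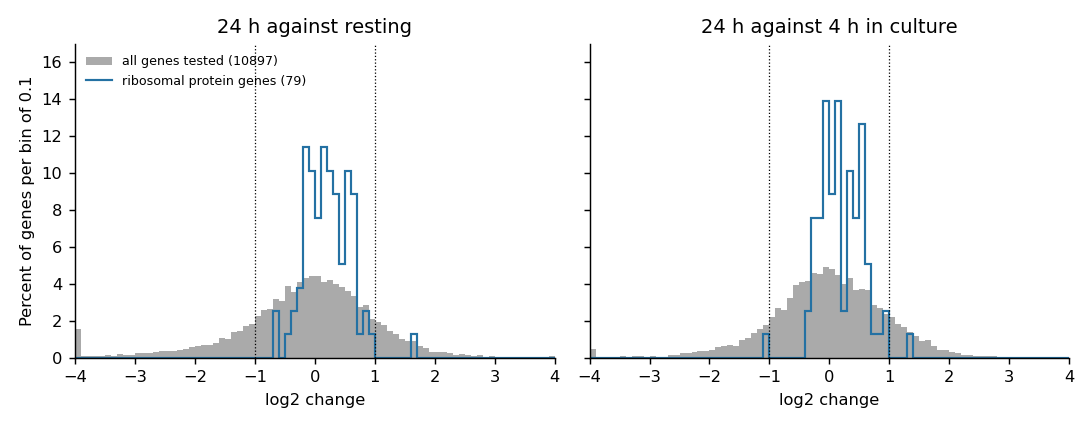
Distribution of log2 changes at 24 h against resting (left) and at 24 h against 4 h in culture (right), as the percent of genes per bin of 0.1, for the 79 ribosomal protein genes tested (line) and all genes tested (grey); values beyond the axis are counted in the end bins, and dotted lines mark 2-fold. The ribosomal protein genes gathered around medians of 0.19 and 0.13 and rarely reached 2-fold.

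A comparison within the cultures avoids the resting libraries. Between 4 h and 24 h, 2 members passed with at least a 2-fold change, against 26.3% of the 10737 genes tested: Rps27l was higher and Rps27 lower. Without the Th0 culture Rps27 missed 2-fold and the count was 1. At any fold 32 members rose (35.3% of all genes) and 3 fell (34.5%), and without the Th0 culture these were 20 and 2. The split was 26 to 13 with quantile normalization and 27 to 9 with haemoglobin left out. The members had a median log2 change of 0.13 and all genes one of 0.00; without the Th2 culture the median of the members was 0.22, and with haemoglobin left out it was 0.01 beside -0.12 for all genes. Of the 35 members, 18 passed whichever culture was left out. Changes against the resting libraries share those 2 libraries, so the time points are set side by side: the median was 0.04 at 8 h, 0.15 at 12 h, 0.13 at 16 h and 0.20 at 20 h, while the medians of all genes at these times ran from -0.07 to -0.01.

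The members moved through a narrow range. Between its lowest and its highest library of the time course, the median member spanned 0.76 on the log2 scale, and 64 of 79 (81.0%) spanned less than 1. Over all genes whose mean reached 1 RPKM the median range was 1.33 and 29.9% stayed under 1; over the 898 genes whose mean reached 100 RPKM these were 1.29 and 36.3%. Rpl9 (0.33) and Rpl23 (0.33) had the narrowest ranges, chosen after their values were seen in the case of Rpl9. The values of Rpl23, a protein of the large subunit, lay between 1245 and 1567 RPKM in all 20 libraries. Rps27l (2.22), Rps27 (1.43) and Rps2 (1.37) had the widest.

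**Figure D3:**
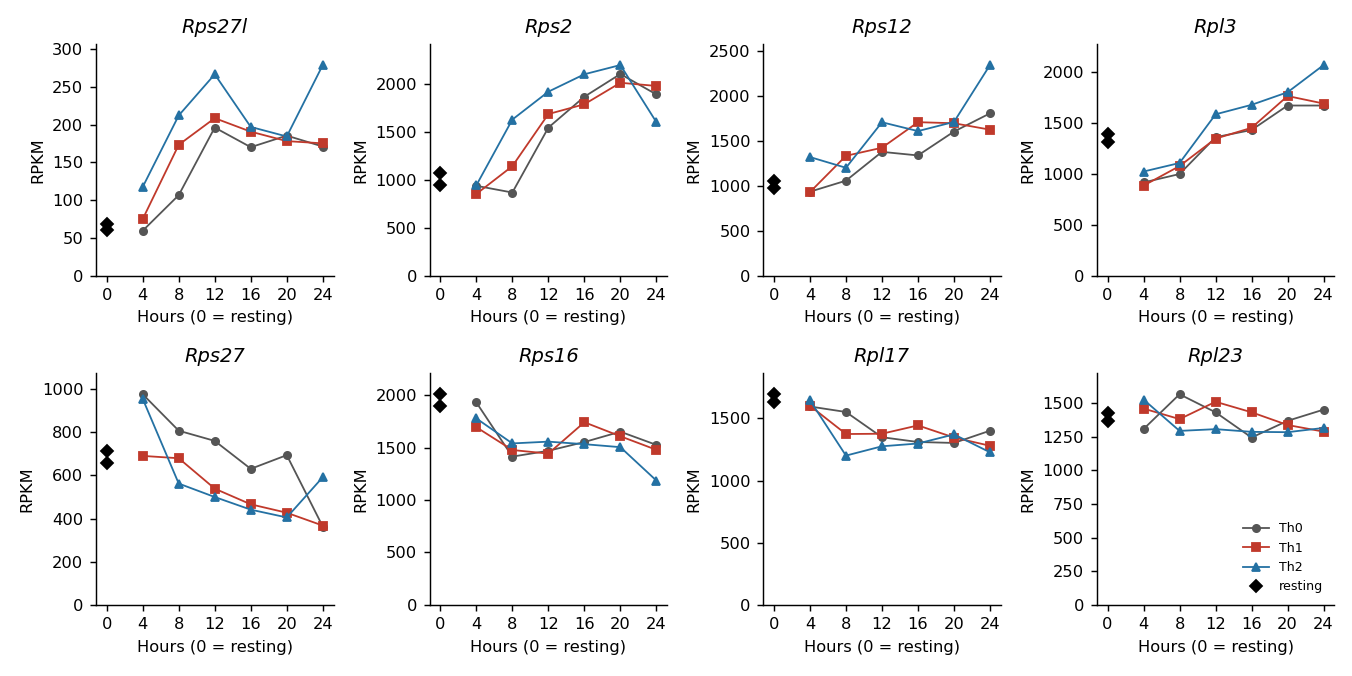
RPKM of 8 ribosomal protein genes in each library by hours after activation, with resting libraries as diamonds at 0 and the 3 cultures as lines; every axis starts at 0. Rps27l, Rps2, Rps12 and Rpl3 ended above the resting libraries, Rps27, Rps16 and Rpl17 ended below them, and Rpl23 lay between 1245 and 1567.

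The stalk proteins recruit translation factors to the large subunit. Rplp0, the base of the stalk, had 2298 and 2398 RPKM at rest, 2527, 2243 and 2919.7 at 4 h in Th0, Th1 and Th2, and 2683, 2693 and 2559 at 24 h. The cultures overlapped the resting libraries at 4 h and were above both at 24 h. Rplp1 had 3046 and 2771 RPKM at rest and 2691, 2292 and 3061 at 24 h, and Rplp2 had 999.6 and 968 at rest and 1076, 1096 and 936 at 24 h. Changes at 24 h were 0.17 for Rplp0, -0.13 for Rplp1 and 0.07 for Rplp2 (SE 0.11, 0.18 and 0.12), with adjusted p values of 0.165, 0.561 and 0.625 from limma. At 20 h Rplp0, with 2777, 2877 and 2879 RPKM, and Rplp2, with 1267, 1159 and 1189, were above both resting libraries in each culture and rose by 0.28 and 0.29 (SE 0.11 and 0.12, limma adjusted p = 0.0314 and 0.0460). Both calls were lost without either resting library, without Th0 and without Th1, and the adjusted p ran over the alternatives from 0.00534 to 0.215 and from 0.00606 to 0.432. Rplp1 spanned 0.81 on the log2 scale over the time course, between 2204 and 3867 RPKM.

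Rps27a is made as a fusion of ubiquitin with a small subunit protein and supplies both. It had 1351 and 1312 RPKM at rest, 1142, 1209.7 and 1641 at 4 h and 1701, 1603 and 2554 at 24 h, where each culture was above both resting libraries. Between 4 h and 24 h it rose by 0.54 (SE 0.14, limma adjusted p = 0.00268). The change against resting was 0.52 (SE 0.18, adjusted p = 0.0163 from limma); without resting library 1 or 2 this p was 0.0599 or 0.0810, in a range of 0.00803 to 0.0810 over 18 alternatives. Fau, a fusion of a ubiquitin-like protein with a small subunit protein, is left out of the members by its name and went the other way in culture: it fell by 0.64 from 4 h to 24 h (adjusted p = 0.000624 in limma).

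Rps27l, a paralog of Rps27 that p53 is known to induce, changed more than any other member. It had 67.7 and 60.2 RPKM at rest. At 4 h it had 59.4 RPKM in Th0, 74.8 in Th1 and 117 in Th2, at 8 h it had 107, 173 and 212 and at 12 h 196, 208 and 267. At 24 h it had 171, 175 and 279 RPKM, so from 8 h on every culture was above both resting libraries, and at 4 h the Th0 culture was not. The log2 change was 0.33 at 4 h (SE 0.28, limma adjusted p = 0.396), 1.30 at 8 h (adjusted p = 0.00117), 1.79 at 12 h (adjusted p = 4.97e-05) and 1.66 at 24 h (adjusted p = 8.05e-05). Over the 18 alternatives the change at 24 h ran from 1.43 to 1.81 and passed in each. Its start window, shown above, holds a pyrimidine run that ends before the annotated start.

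Rps27, the core partner of Rps27l in the small subunit, moved in the opposite direction late in culture. It had 657 and 715 RPKM at rest, 977, 691 and 955 at 4 h, and 363, 367 and 592 at 24 h. All 3 cultures were thus below both resting libraries at 24 h, and at 4 h 2 of the 3 were above them. From 4 h to 24 h it fell by 1.01 (SE 0.20, limma adjusted p = 0.000385), and by 0.80 without the Th0 culture. Against resting the change at 24 h was -0.68 (SE 0.27, limma adjusted p = 0.0364), a call that was lost without resting library 1, resting library 2 or the Th1 culture, with adjusted p values of 0.00695 to 0.165 over the alternatives. Reads of Rps27 are hard to separate from those of Rps27rt, a retrogene copy named here after its values were seen. Rps27rt was listed at 4111 and 3261 RPKM at rest and at 2179, 1582 and 2375 at 24 h, and its change at 24 h was -0.86 (limma adjusted p = 0.00494). Rps27 made up 13.7% to 28.2% of the pair over the time course, and both entries were lower at 24 h than at rest in each culture.

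The other paralogs with restricted expression were low. Rpl10l, known from testis, was listed at 0, and Rpl3l, known from striated muscle, reached 0.0831 RPKM at most. Rpl39l, known from testis, had 0.503 and 0.317 RPKM at rest, 0.255, 0.557 and 0.623 at 4 h, and 1.08, 0.799 and 2.02 at 24 h; its mean was under the limit of 1 RPKM and it was not tested. Rps4l had 2.04 and 2.97 RPKM at rest and 2.10, 1.23 and 1.08 at 24 h, with a change of -0.63 (SE 0.35, limma adjusted p = 0.124). At such levels adding 0.5 RPKM before taking the logarithm understates a change.

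The core partners of these paralogs were abundant and differed among themselves. Rpl3, which lies near the peptidyl transferase centre, had 1309 and 1386 RPKM at rest, 913, 882 and 1020.1 at 4 h, and 1667, 1687 and 2064 at 24 h. It was lower than rest in all 3 cultures at 4 h and higher in all 3 at 24 h. The fall at 4 h was -0.52 (SE 0.12, limma adjusted p = 0.00284); without the Th1 culture the adjusted p was 0.0584, in a range of 0.000239 to 0.0584. At 24 h Rpl3 had risen by 0.42 over rest (adjusted p = 0.00573 in limma), a call lost without resting library 1 and with quantile normalization (adjusted p up to 0.0883). Its rise in culture from 4 h to 24 h was 0.94 (SE 0.09, limma adjusted p = 1.92e-07), which passed under each of 15 alternatives.

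Rpl10, the partner of Rpl10l that joins the large subunit last, had 1428 and 1378 RPKM at rest and 1859, 1791 and 2327 at 24 h, above rest in each culture. It rose by 0.50 (SE 0.12, limma adjusted p = 0.00181) and passed under all 18 alternatives. Rps4x, the X-linked partner of Rps4l, had 2469.9 and 2374 RPKM at rest and 2956, 2644 and 3914 at 24 h. Its change of 0.37 (limma adjusted p = 0.0220) was lost without either resting library, without Th0, without Th2 and under 4 further alternatives, among them no filter on low values (adjusted p 0.000365 to 0.149 over the 18 alternatives). Rpl39, a short protein of the exit tunnel, had 1341 and 1141 RPKM at rest and 817, 980.1 and 771 at 16 h, below rest in each culture. It fell at 16 h by 0.54 (SE 0.16, limma adjusted p = 0.00742), a call lost without resting library 1, where the adjusted p was 0.0958 in a range from 0.00077. At 24 h the change of Rpl39 was -0.24 (adjusted p = 0.180 in limma), with the Th2 culture, at 1303 RPKM, between the resting libraries.

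Rpl5 and Rpl11 form a particle with 5S ribosomal RNA that can bind Mdm2, the ubiquitin ligase of p53. Rpl5 had 1897 and 1823 RPKM at rest, 1718, 1817 and 1996 at 4 h and 1801, 1663 and 2728 at 24 h, so the cultures lay on both sides of the resting libraries. Rpl11 had 1081 and 1021 RPKM at rest, 894, 849 and 1213 at 4 h and 1219.7, 1130.0 and 1398 at 24 h. Their changes at 24 h were 0.12 and 0.24 (limma adjusted p = 0.545 and 0.146). Rpl11 rose from 4 h to 24 h by 0.35 (SE 0.12, limma adjusted p = 0.0145), a call lost without the Th0 or the Th1 culture, with adjusted p values of 0.00332 to 0.154 over 15 alternatives.

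Rps6, the target of the S6 kinases downstream of mTOR, was at a similar level throughout. It had 2365 and 2302 RPKM at rest, 2148, 2302 and 2871 at 4 h, and 2408, 2231 and 2598 at 24 h, and its change at 24 h was 0.05 (SE 0.13, limma adjusted p = 0.768). A change in its phosphorylation would not be visible in these data.

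Of 5 members often used as reference genes in PCR, Rpl32 was the only one to pass at 24 h, with 0.29 (SE 0.12, limma adjusted p = 0.0383), and its call was lost when any resting library or culture was left out (adjusted p 0.0112 to 0.214 over the alternatives). The others were Rps18 with 0.30, Rplp0 with 0.17, Rpl19 with 0.13 and Rpl13a with -0.15. Between 4 h and 24 h in culture Rpl32 rose by 0.37 and Rps18 by 0.40 (limma adjusted p = 0.00646 and 0.0108). Both calls were lost without the Th0 culture, with the highest adjusted p values over the alternatives, 0.164 and 0.0882, and that of Rpl32 also without Th1 (0.0509). Rpl13a had 3266 and 2972 RPKM at rest and 2689, 2357 and 3497 at 24 h, a wider spread between cultures than between the resting libraries.

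Several members outside these roles rose. Rps2, which lines the mRNA entry channel of the small subunit, had 948 and 1069 RPKM at rest, 937, 852 and 942 at 4 h, 2104, 2013 and 2198 at 20 h and 1891, 1979 and 1602 at 24 h. It was near or below rest at 4 h and above both resting libraries in each culture from 12 h on. It rose by 1.06 at 20 h (SE 0.19, limma adjusted p = 0.00012) and by 0.85 at 24 h (adjusted p = 0.000789). The 2-fold call at 20 h was lost without resting library 1, with quantile normalization and with haemoglobin left out, where the change was as low as 0.96. Rps12 had 1051 and 981 RPKM at rest and 1808, 1627 and 2347 at 24 h, a rise of 0.91 (SE 0.18, limma adjusted p = 0.000274). Rpl15 had 662 and 692 RPKM at rest and 1087, 1044 and 1601 at 24 h, a rise of 0.85 (SE 0.16, limma adjusted p = 0.000186). These 3 rises at 24 h passed under each of the 18 alternatives. An entry named Rps12-ps3, outside the naming rule, was listed close to Rps12, at 1035 and 946 RPKM at rest. At 24 h Rps12-ps3 had 1819, 1647 and 2395 RPKM. How reads were divided between Rps12 and this entry is not known, so the values of Rps12 can hold reads of a copy.

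Rpl24, which forms a bridge between the subunits, also rose. It had 695 and 719.7 RPKM at rest, 780.4, 756 and 985 at 4 h, 1016, 996 and 914 at 8 h and 1150.2, 1088 and 1180.3 at 24 h, with every culture above both resting libraries from 4 h on. The change was 0.24 at 4 h (limma adjusted p = 0.0997), 0.46 at 8 h (adjusted p = 0.00196) and 0.65 at 12 h (SE 0.11, adjusted p = 8.23e-05). Rpl29 had 461 and 469.7 RPKM at rest and 887, 870.0 and 868 at 20 h, a rise of 0.91 (SE 0.12, limma adjusted p = 1.21e-05). The cultures of 20 h lay close together for this gene and far from the resting libraries.

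A few members fell. Rps16, which contacts the transfer RNA in the decoding site, had 2009 and 1898 RPKM at rest, 1931, 1694 and 1778 at 4 h, and 1526, 1479 and 1185 at 24 h. At 24 h each culture was below both resting libraries, and the change was -0.49 (SE 0.11, limma adjusted p = 0.00117), with a pass under all 18 alternatives. Rpl17 had 1694 and 1629.5 RPKM at rest and 1401, 1279.7 and 1227 at 24 h. In culture it fell from 4 h to 24 h by 0.31 (SE 0.10, limma adjusted p = 0.0116), a call lost without the Th1 or the Th2 culture, with adjusted p values up to 0.120. At 24 h the 4 members that fell included Rps27, Rps16 and Rpl17, and Rps16 alone of the 4 passed whichever library or culture was left out.

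Proteins close to the family but outside the naming rule differed widely. Rack1, a scaffold on the small subunit, rose by 0.40 at 24 h (limma adjusted p = 0.00362). Rpl7l1, which takes part in making the large subunit, rose by 1.86 (adjusted p = 1.66e-06 in limma), from 25.5 and 25.3 RPKM at rest to 95.1, 92.2 and 92.9 at 24 h. Rpl22l1, the paralog of Rpl22, was lower at 12 h by -0.93 (limma adjusted p = 0.000325) and at 24 h had a change of 0.29 (adjusted p = 0.164), while Rpl22 had changes of 0.16 and 0.39 at these times. The call for Rpl22 at 24 h (limma adjusted p = 0.0369) was lost without either resting library, without Th1 and without Th2, and its adjusted p ran from 0.0149 to 0.196 over the alternatives.

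Between Th2 and Th0, over the 6 time points, 0 members passed limma with at least a 2-fold difference (2.01% of all genes). At any fold 7 were higher in Th2 (12.9% of all genes) and 0 lower (16.7%). These were Rps27l (0.55, SE 0.12, limma adjusted p = 0.00313), Rps12 (0.29), Rpl15 (0.24), Rpl22 (0.24), Rpl10a (0.22), Rpl3 (0.20) and Rpsa (0.18). Rps27l passed under each of 19 alternatives, and the other 6 were each lost when 1 of several time points was left out. The count was 1 without 4 h, without 12 h or without 16 h, and 4 without 8 h, and with quantile normalization 3 were higher and 1 lower. Rps27 had the lowest value, -0.29, Rpl17 was among the 3 lowest at -0.09, and Rps27a was among the 3 highest at 0.27; the limma adjusted p values of these 3 ran from 0.0521 to 0.360.

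The median difference between Th2 and Th0 was 0.10 for the members and 0.00 for all genes, and it varied by time point. It was 0.34 at 4 h, with 75 of 79 members higher in Th2, -0.06 at 8 h, 0.12 at 12 h, 0.11 at 16 h, 0.03 at 20 h and 0.19 at 24 h. Without the Th2 libraries of 4 h and 24 h, an alternative chosen after the data were seen, the median was 0.01, 5 members were higher and 2 lower. With quantile normalization the median was 0.03 for members and for all genes. Th2 was above Th0 for 58 members at 12 h, 67 at 16 h and 54 at 24 h, and above Th1 for 63, 21 and 59, so the order of the cultures changed with time.

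Between Th2 and Th1, 0 members passed limma at 2-fold (1.96% of all genes) or at any fold (12.2%). The median of the members was 0.09, beside 0.02 for all genes, and -0.01 without the Th2 libraries of 4 h and 24 h. Rps27l (0.34), Rps4l (0.29) and Rpl41 (0.21) had the highest values, and Rpl17 (-0.08) and Rpl23 (-0.07) were among the 3 lowest. Between Th1 and Th0, 0 members passed limma at 2-fold (0.494% of all genes) or at any fold (2.27%). At any fold 1 member, lower in Th1, passed without the 24 h libraries. The median was 0.02 for the members and -0.01 for all genes. Rps27l (0.21), Rpl36 (0.18) and Rpl35a (0.16) had the highest values and Rps27 (-0.39), Rps4l (-0.36) and Rps20 (-0.15) the lowest. The lineage genes followed the conditions in part. Ifng differed by 3.15 between Th1 and Th0 and by 0.66 between Th2 and Th0, Tbx21 by 0.45 and -1.78, Gata3 by -0.94 and 0.66, and Il4 by 0.87 and 0.29, so over the time points Il4 was higher in Th1 than in Th2, with an adjusted p of 0.191 in limma.

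Genes for the assembly of ribosomes are given beside the members. Of 49 ribosome biogenesis genes tested, such as those of RNA polymerase I and of nucleolar processing factors, 45 rose at least 2-fold at 12 h and 43 at 24 h, with medians of 1.72 and 1.65. Their summed level was 2557 and 2463 RPKM in the resting libraries and 8766, 8635 and 10279 RPKM at 24 h in Th0, Th1 and Th2. Nop16, a nucleolar protein, had the largest change at 24 h (2.64), and Npm1, nucleophosmin, rose by 2.18. At 4 h 3 of the 49 genes were higher at any fold and 1, the polymerase I factor Ubtf, lower, by -1.60 (limma adjusted p = 5.05e-05). The largest shift of the median of all genes under a scaling was 0.16, and this list was not fitted again under the scalings. Between Th2 and Th0, 41 of the 49 were higher at any fold, with a median of 0.50, beside the 7 of 79 ribosomal protein genes. A test of the difference between the lists was not made.

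Mitochondrial ribosomal proteins lay between these groups. Of 77 genes, 36 rose at least 2-fold at 24 h and 73 at any fold, with a median of 0.97. They took 0.306% and 0.309% of the summed RPKM at rest and 0.624% ± 0.0184 at 24 h (SD, n = 3). Thus the genes for mitochondrial ribosomes had a larger median than those for cytosolic ribosomes, from a level far below theirs.

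Other mRNAs known to carry a TOP motif, mostly translation factors, had a median of 0.63 at 24 h, with 10 of 17 higher and 2 lower at any fold. Npm1, which is also among the biogenesis genes, rose most, and Vim, an intermediate filament gene, and Tpt1 fell by 1.91 and 0.72. Eef1a1, the most abundant at 10922 RPKM at rest, had a change of 0.10 (limma adjusted p = 0.328). Of 13 regulators of ribosomal protein synthesis, 3 rose at least 2-fold at 24 h: Myc by 2.58, Larp4 by 1.54 and Larp1 by 1.22. Maf1, a repressor of RNA polymerase III, fell by 0.76 (limma adjusted p = 0.00960). Of 8 activation genes, 6 rose at least 2-fold at 4 h and 6 at 24 h, with medians of 2.20 and 2.79.

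**Figure D4:**
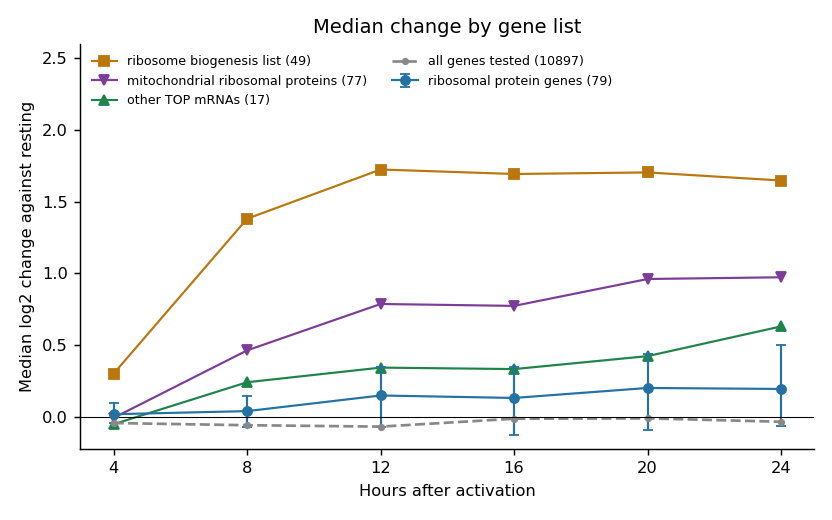
Median log2 change against resting by hours after activation for 79 ribosomal protein genes, with bars from the lower to the upper quartile over those genes, and for 49 ribosome biogenesis genes, 77 mitochondrial ribosomal protein genes, 17 other TOP mRNAs and all genes tested. All time points share the 2 resting libraries; the biogenesis median was 1.72 at 12 h, where that of the ribosomal protein genes was 0.15.

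After actinomycin the members rose as a share of the remaining message. They made up 19.3%, 22.0%, 24.5% and 23.6% of the summed RPKM at 0, 1, 2 and 4 h. With 1 library per time these values carry no test, and since RPKM is a share of each library, a rise does not mean that more copies were present. The median slope of log2(RPKM + 0.1) on hours was 0.08 per hour over the 80 members that reached a mean of 1 RPKM in these libraries, and 75 of the 80 slopes were positive. Over 10571 genes it was 0.00, with 50.8% positive. The slope of the members rested on the first library: without 0 h it was 0.0097, with 44 positive, and was then below that of all genes (0.0141). Without 4 h it was 0.24, beside -0.04 for all genes. Large subunit genes had a median of 0.07 and small subunit genes one of 0.10. Biogenesis genes had a median of -0.14, with 5 of 49 positive, activation genes one of -0.30, with 1 of 8 positive, and mitochondrial ribosomal protein genes one of -0.06.

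Rps27l had the lowest slope of the members, -0.17 per hour, and its level was 259, 285, 266 and 167 RPKM at 0, 1, 2 and 4 h. Only the library of 4 h was below that of 0 h, so this slope rested on a single library. Rpl39l (-0.07) followed, at 0.386, 2.06, 1.71 and 0.477 RPKM, where so few reads carry little weight, and Rpl15 (-0.03) at 1316, 1400.1, 1589 and 1209.7 RPKM. The highest slopes were those of Rplp2 (0.21), with 1125, 1551, 1655 and 2140.1 RPKM, Rplp0 (0.21), with 2734, 3420.0, 4445 and 4916 RPKM, and Rps16 (0.18), with 1526, 1990.3, 1819 and 2626 RPKM. Both stalk genes rose in share at each step, while Rps16 did not rise between 1 h and 2 h.

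**Figure D5:**
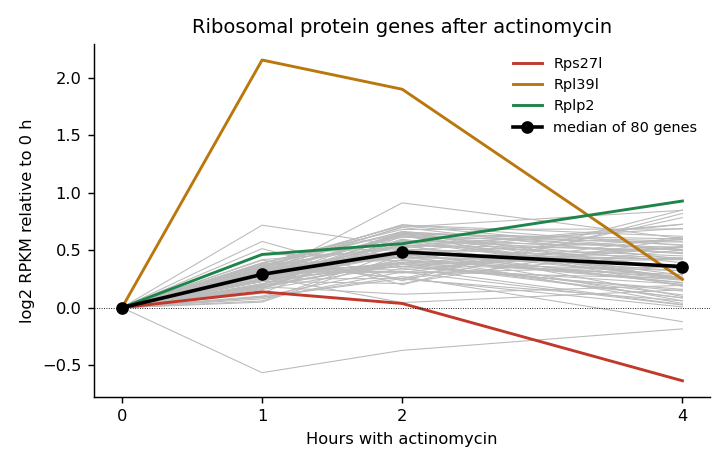
log2 RPKM relative to 0 h for the 80 ribosomal protein genes by hours with actinomycin (grey lines), with the median in black and Rps27l, Rpl39l and Rplp2 in colour; there was 1 library per time. The median rose in share up to 2 h, and Rps27l ended below its value at 0 h.

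The values above are levels of mRNA in bulk cultures, given as shares of each library. A change in total RNA per cell, which activation brings, is therefore not visible, nor are ribosome numbers, translation or protein. Each culture and time was sequenced a single time, the resting libraries were 2, and the counts of members passing at any fold depended on which library was left out. Expressed copies share sequence with several members, and how their reads were assigned is not known. At 24 h the median member lay above the median gene as deposited, with median-of-ratios factors and with haemoglobin left out. With quantile normalization it lay below.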

How the data were processed

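The deposited table gave RPKM per gene and library, computed by the authors; the submitters' processing notes name BWA and GRCm38. The members and all gene lists were chosen with earlier results of these data known. A value of 0.5 was added to each RPKM before taking log2, and limma 3.58.1 (R 4.3.3) fitted the changes, letting the variance follow the mean level. Genes whose mean reached 1 RPKM entered, and p values were adjusted over all of them by Benjamini-Hochberg. The fit against resting cells used 20 libraries with time as the factor; that of the cultures used 18, with time and condition. Calls needed an adjusted p under 0.05, with at least a 2-fold change or with any fold. Other steps used Python 3.11.15, numpy 2.4.6, pandas 2.3.3 and matplotlib 3.10.9. Alternatives were other pseudocounts, filters, 6 scalings, no intensity trend, fewer libraries, and each resting library, culture or time left out. Text names members with the 5 highest and 3 lowest means, the 3 largest and 3 smallest changes per comparison, the 3 highest and 3 lowest actinomycin slopes, listed genes, and members past 2-fold; others were chosen after values were seen.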

Additional observations from a re-analysis of the deposited data

How the results depend on the processing

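Over all results and alternatives, 326 values stayed close to those reported and 44 moved; the cause was not tested. At 4 h the 2 members called at any fold became 1 without a filter, with median-of-ratios (all genes or without the members) or upper-quartile scaling, without the intensity trend and with only the libraries compared, 0 to 4 when a resting library or culture was left out, and 5 without the Th2 libraries of 4 h and 24 h, an alternative chosen after seeing the data. The 24 at 12 h became 12 to 26 over the leave-outs. At 24 h the single 2-fold call became 2 with both median-of-ratios forms and 1 to 2 over the leave-outs. From 4 h to 24 h, the leave-outs gave 1 to 3 at 2-fold and 22 to 36 at any fold. The 7 of Th2 against Th0 became 3 without a filter, 11 with both median-of-ratios forms and upper-quartile scaling, 4 with quantile normalization, 1 with 12 to 24 h only and 1 to 8 on leaving a time out. For Th1 against Th0 leaving a time out gave 0 to 1, and leaving out those Th2 libraries gave 1. The member median at 24 h was 0.34 with both median-of-ratios forms, 0.0572 with quantile normalization and 0.0753 without haemoglobin. From 4 h to 24 h it was 0.21, 0.0239 and 0.0132 in these, 0.136 to 0.218 over the leave-outs and 0.21 without those Th2 libraries. The share at rest was 17.5% without haemoglobin genes, and the actinomycin slope was 0.00974 to 0.242 on leaving a time out. Against resting cells no paired analysis was possible because the resting libraries belong to no culture; the cultures were compared within condition and time. A library left alone in its group was assumed to vary like the others.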
